A study of Homo sapiens with 3 samples.

Results

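The 10 genes examined here were NKX2-1, FOXA1, FOXA2, SFTPA1, SFTPB, SFTPC, NAPSA, HOPX, SCGB3A2 and ABCA3, which are transcription factors and effector genes of the lung epithelium. They were listed by name, by a rule that itself uses no measured value, out of 20163 protein-coding genes in the annotation, and all 10 were found in it. For each gene, the peaks lying over its body or within 50 kb of either end were collected. H2087 is an established cell line of human lung adenocarcinoma, and its cells were untreated. Chromatin was precipitated with an antibody against H3K27ac, the acetylated lysine 27 of histone H3, or against H3K4me3, its trimethylated lysine 4, with 1 library per mark, and the peaks of each library were called by the authors. An input library also belongs to the series and was not analysed here. No mark had a replicate, so every value below describes 1 library, no test between marks or genes was made, and the intervals given cover counting error only.

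H3K4me3 is concentrated at the starts of active or poised genes, and H3K27ac at active promoters and enhancers. In the lung, NKX2-1 is a homeodomain transcription factor that specifies and maintains the epithelium of the airways and alveoli, and the forkhead factors FOXA1 and FOXA2 open chromatin at many of the genes that it binds. Alveolar type 2 cells secrete surfactant, a film of lipid and protein that keeps alveoli from collapsing. SFTPA1, SFTPB and SFTPC encode surfactant proteins, ABCA3 a lipid pump that loads surfactant into lamellar bodies, and NAPSA the aspartic protease napsin A, which helps to process surfactant proteins and is stained together with NKX2-1 to diagnose lung adenocarcinoma. HOPX encodes an atypical homeodomain protein of alveolar type 1 cells, and SCGB3A2 a secretoglobin of airway secretory cells.

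The marks were concentrated at a pair of the factor genes. In the windows of the 10 genes lay 39 H3K27ac and 30 H3K4me3 peaks, and the windows of NKX2-1 and FOXA1 held 25 of each, which was 64.1% and 83.3%. FOXA2 had 2 H3K27ac peaks and no H3K4me3 peak. Of the other 7 genes, none had an H3K27ac peak within 1 kb of its start, and 1 of them, ABCA3, had an H3K4me3 peak there. SFTPA1, SFTPC and SCGB3A2 had no peak of either mark in the whole window.

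**Figure D1:**
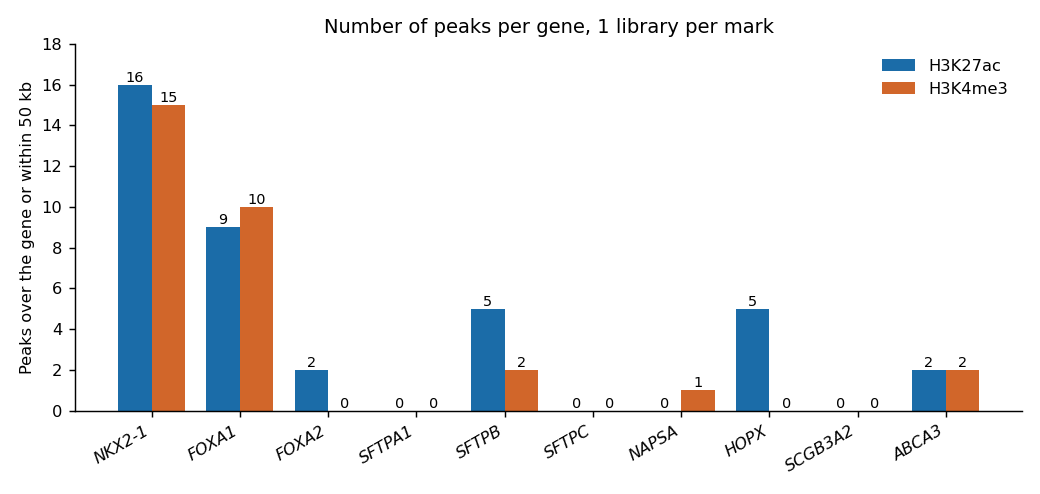
Number of H3K27ac (blue) and H3K4me3 (orange) peaks over each gene or within 50 kb, with 1 library per mark and therefore no error bars. NKX2-1 had 16 and 15 peaks and FOXA1 had 9 and 10, while no other gene had more than 5 of a mark.

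Set against all protein-coding genes, the shares of marked members were similar in size or lower. An H3K27ac peak was present in the windows of 6 of the 10 genes, against 63.9% of all genes, and an H3K4me3 peak in 5, against 70.2%. Within 1 kb of the gene start, taken as the outermost 5′ base in the annotation, 3 genes had H3K27ac (NKX2-1, FOXA1 and FOXA2; 23.6% of all starts) and 3 had H3K4me3 (NKX2-1, FOXA1 and ABCA3; 38.2% of all starts). At a −log10 q of at least 5 the H3K27ac count fell from 3 to 0. In the upper part of the list by its median the H3K4me3 count fell from 3 to 1. The shares of all starts at these cut-offs were not computed, so the falls are not a result about the members. Both marks were found at the starts of NKX2-1 and FOXA1 (18.6% of all starts), and neither mark at the starts of 6 genes (56.8% of all starts). Over the gene body itself, 4 genes had H3K27ac (36.8% of all genes), 4 had H3K4me3 (46.4%), and 4 had neither (SFTPA1, SFTPB, SFTPC and SCGB3A2; 45.5%). The median number of peaks per window was 2 for H3K27ac and 0.5 for H3K4me3, and over all genes it was 1 and 2.

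What separated the genes from each other was the number of peaks in a window. At least 16 H3K27ac peaks, the number at NKX2-1, were found around 2.55% of all protein-coding genes, and at least 15 H3K4me3 peaks around 0.942%. For FOXA1, with 9 and 10 peaks, the shares were 10.2% and 4.57%. A window without any peak, as at SFTPA1, SFTPC and SCGB3A2, was found for 23.6% of all genes. A window grows with the length of its gene, so ABCA3, with a body of 64.9 kb, was searched over more sequence than FOXA2 with 4.46 kb.

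**Figure D2:**
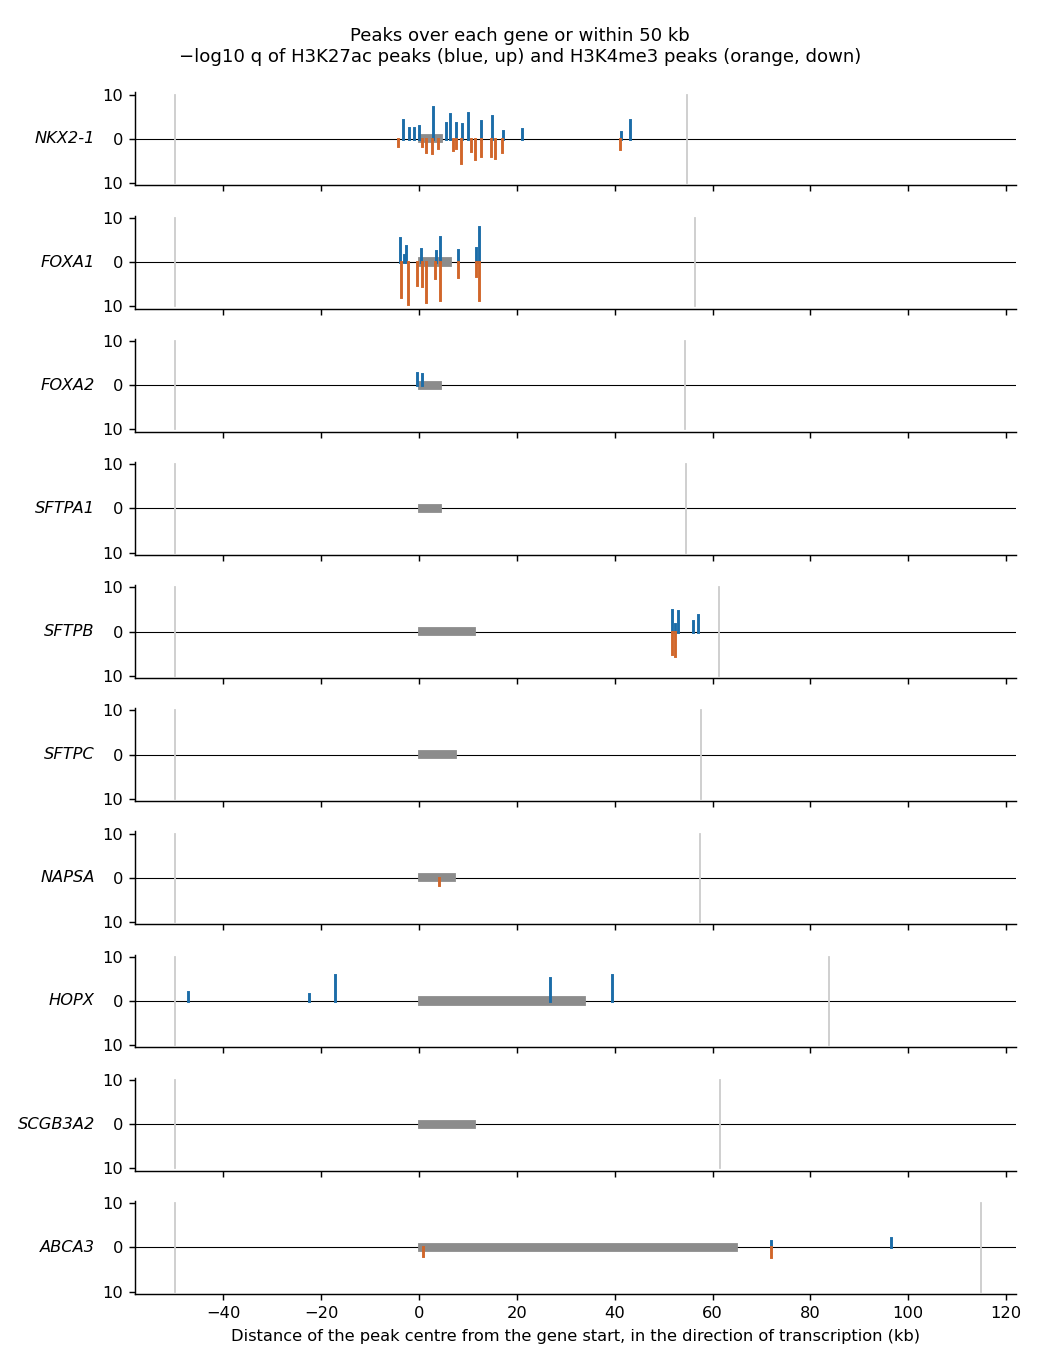
Peaks around each gene, drawn at the distance of their centre from the gene start in kb, with the −log10 q of H3K27ac peaks upwards (blue) and of H3K4me3 peaks downwards (orange). Grey boxes are the gene bodies and pale vertical lines the limits of the windows. The peaks of NKX2-1 and FOXA1 crowd over and around the gene, those of SFTPB lie at the far edge of its window, and 3 windows are empty.

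Each peak carries a −log10 q in the last column of its list, a value that ranks peaks within that list and is not a level of the mark. It depends on the depth of the library, which is unknown here. The list medians were 2.65 for H3K27ac and 2.97 for H3K4me3. Over all peaks in the windows of the 10 genes, the medians were 3.40 and 3.51. The median widths were 383 and 464 bp, against 284 and 305 bp over the lists. These pooled values do not hold for each gene. For H3K27ac the medians were 5.12 at HOPX, 3.81 at SFTPB, 3.55 at NKX2-1, 3.21 at FOXA1, 2.64 at FOXA2 and 1.78 at ABCA3. For H3K4me3 they were 6.66 at FOXA1, 5.29 at SFTPB, 2.95 at NKX2-1, 2.04 at ABCA3 and 1.55 at NAPSA. The H3K4me3 peaks of NKX2-1 had a median width of 273 bp.

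NKX2-1 (ENSG00000136352, chr14:36985597-36990354, minus strand, hg19) lay in the densest cluster. The outer start of NKX2-1 is shared with SFTA3, a neighbouring gene that is transcribed from the same strand and runs on past the 3′ end of NKX2-1, so the marks at this start cannot be assigned to either gene. An H3K27ac peak covered the shared start (36990067 to 36990678, −log10 q 2.82), and a second began 702 bp upstream of it (36991056 to 36991825, 2.46). No H3K4me3 peak covered the outer start. The nearest was 428 bp downstream (36989744 to 36989926, 1.58), which exceeded only 12.4% of the H3K4me3 list. A wider H3K4me3 peak (36988597 to 36989312, 716 bp, 2.95) covered coding sequence of exon 1 of the canonical transcript, whose start is 917 bp downstream of the outer one. This peak also lay over exon 1 of NKX2-1-AS1, and the H3K27ac peak 702 bp upstream of the outer start lay over exon 2 of that gene. They cannot be assigned to a single gene either.

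The strongest H3K27ac peak of the NKX2-1 window was inside the gene. It spanned 1291 bp (36986798 to 36988088) over coding sequence of exon 3, with 4 summits and a −log10 q of 7.28, higher than 98.3% of the list. An H3K4me3 peak of 937 bp overlapped it (36987197 to 36988133, 3.18). The strongest H3K4me3 peak (36981269 to 36982149, 5.53) was outside the gene, in an intron of SFTA3 and 8205 bp from the start of NKX2-1. It overlapped an H3K27ac peak of 3.40. Between it and NKX2-1, an H3K27ac peak (36982645 to 36983075, 3.55) and an H3K4me3 peak (36982481 to 36983068, 2.12) overlapped over an annotated exon 1 of SFTA3. Peaks around that exon therefore cannot be assigned to NKX2-1 or SFTA3.

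The −log10 q ranged from 1.66 to 7.28 (median 3.55) in the 16 H3K27ac peaks at NKX2-1 and from 1.58 to 5.53 (median 2.95) in the 15 H3K4me3 peaks. The peaks were distributed unevenly around the gene. Of the 16 H3K27ac peaks, 3 were upstream, 2 over the body and 11 past the 3′ end, and of the 15 H3K4me3 peaks the numbers were 1, 4 and 10. The widest H3K27ac peak of the window was among those past the 3′ end (36974412 to 36976609, 2198 bp, 4 summits, −log10 q 5.10), in an intron of SFTA3. It overlapped 2 H3K4me3 peaks. Of the 16 H3K27ac peaks, 7 overlapped H3K4me3, against 24% of the H3K27ac list. Of the 15 H3K4me3 peaks, 8 overlapped H3K27ac, against 31.1% of the H3K4me3 list. When neighbouring H3K27ac peaks were joined across gaps of up to 10 kb, 14 of them formed a region of 24.6 kb (36969135 to 36993773) with 9.59 kb under peaks, which ranked 25 of 4606 joined regions by that length. The region contained 13 H3K4me3 peaks.

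**Figure D3:**
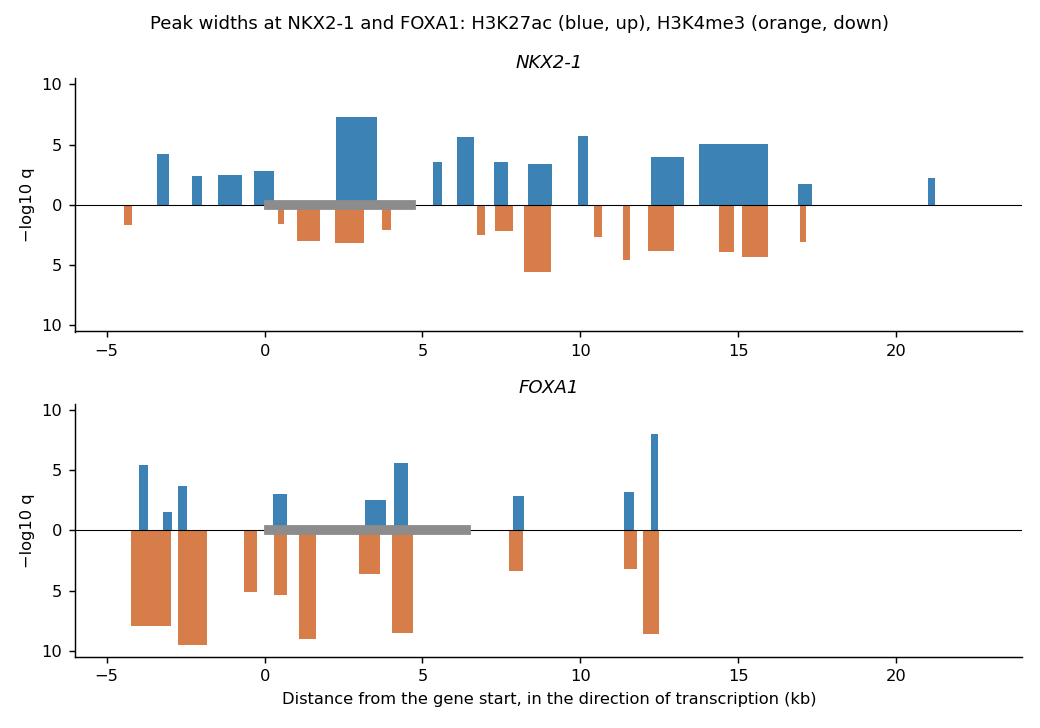
Peaks at NKX2-1 and FOXA1 drawn to their width, against distance from the gene start in kb, with −log10 q as height (H3K27ac up in blue, H3K4me3 down in orange) and the gene body in grey. The 2 H3K27ac peaks and 1 H3K4me3 peak 41.1 to 43.1 kb from the start of NKX2-1 are beyond the right edge. At FOXA1 each H3K27ac peak faces an H3K4me3 peak, and at NKX2-1 the 3 H3K27ac peaks upstream of the start face none.

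Letters of the forkhead motif, searched as TGTTTAC or TATTTAC on both strands, were found in the central 200 bp of 2 of the 16 H3K27ac peaks at NKX2-1, and in 1.75% of all H3K27ac peaks. Both peaks lie past the 3′ end of NKX2-1, overlap no H3K4me3 peak, and were the only H3K27ac peaks of the 39 with these letters in that part. Their central parts are given on the minus strand of hg19, with the motif in capitals, to show where the letters stand.
NKX2-1 distal, chr14:36947176-36947375, −log10 q 4.21: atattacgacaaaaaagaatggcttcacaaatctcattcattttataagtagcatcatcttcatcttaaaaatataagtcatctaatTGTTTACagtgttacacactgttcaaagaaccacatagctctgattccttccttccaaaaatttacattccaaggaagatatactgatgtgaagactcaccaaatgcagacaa
NKX2-1 proximal, chr14:36984777-36984976, −log10 q 3.55: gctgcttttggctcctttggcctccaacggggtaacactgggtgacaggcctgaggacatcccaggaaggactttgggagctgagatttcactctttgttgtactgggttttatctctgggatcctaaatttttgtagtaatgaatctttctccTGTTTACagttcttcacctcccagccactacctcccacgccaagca
The first had a GC content of 32% and 1 CpG, and the second 49% and 2 CpGs. The median over all H3K27ac peaks was 56.5% and 5.

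FOXA1 (ENSG00000129514, chr14:38058757-38065264, minus strand) carried the peaks in which the marks coincided most. All 9 H3K27ac peaks of its window overlapped an H3K4me3 peak, against 24% of the H3K27ac list, and 8 of its 10 H3K4me3 peaks overlapped H3K27ac, against 31.1%. Their −log10 q ranged from 1.55 to 8.0 (median 3.21) for H3K27ac and from 3.24 to 9.5 (median 6.66) for H3K4me3. All 10 H3K4me3 peaks were above the median of their list, and 7 had a −log10 q of at least 5. The highest, 9.50, belonged to a peak of 936 bp (38067077 to 38068012) that began 1813 bp upstream of the outer start. Over coding sequence of exon 2 lay an H3K4me3 peak of 8.56 (38060553 to 38061233) and, inside it, an H3K27ac peak of 5.57 (38060721 to 38061177). The second highest H3K4me3 value, 9.0, belonged to a peak over coding sequence of exon 1 (38063650 to 38064172) and had no H3K27ac partner.

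At the start itself, H3K4me3 peaks lay 249 bp upstream (38065513 to 38065915, −log10 q 5.10) and 296 bp downstream (38064559 to 38064968, 5.41). An H3K27ac peak lay 265 bp downstream (38064561 to 38064999, 3.04) and shared nearly the same limits as the second. TTC6 begins 430 bp from the outer start of FOXA1 on the opposite strand, within this pair of peaks, so the start marks may belong to either gene. By outer starts, TTC6 was the nearest coding start for 6 of the 9 H3K27ac and 7 of the 10 H3K4me3 peaks. That rule leaves out the canonical start of FOXA1, which is 810 bp downstream of the outer one, and other internal starts. The H3K4me3 peak of 9.0, for example, covered the start of a FOXA1 transcript and was 662 bp from the start of TTC6. TTC6 therefore need not be the gene marked by these peaks.

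The strongest H3K27ac peak at FOXA1 was not at the gene. It was intergenic, 12.2 kb from the start and past the 3′ end, with a −log10 q of 8.0 that exceeded 99% of the list, and it was the highest H3K27ac value in the windows of the 10 genes. An H3K4me3 peak of 8.64 (38052781 to 38053278) enclosed it. Its sequence on the minus strand of hg19 contains neither the forkhead letters nor CAAGTG, the core recognised by NKX2 factors, and shows instead the base composition of a CpG island, with 72.8% GC and 18 CpGs in 206 bp.
FOXA1 distal, chr14:38052813-38053018: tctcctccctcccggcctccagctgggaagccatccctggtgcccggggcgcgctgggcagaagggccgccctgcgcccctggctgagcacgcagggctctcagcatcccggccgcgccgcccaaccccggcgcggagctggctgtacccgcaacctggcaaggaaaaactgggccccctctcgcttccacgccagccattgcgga
The 9 H3K27ac peaks of the FOXA1 window had a median of 17 CpGs in their central 200 bp, and the 16 of NKX2-1 had 7. The joined region at FOXA1 spanned 16.4 kb with 3.24 kb under peaks and ranked 246 of 4606, below a region of 38.4 kb that reaches into the window of SFTPB (rank 70, 14 peaks, 6.24 kb under peaks) without touching that gene.

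FOXA2 (ENSG00000125798, chr20:22561636-22566093, minus strand) had a sparser pattern. An H3K27ac peak began 189 bp upstream of the outer start (22566282 to 22566770, −log10 q 2.82), and another was in an intron 406 bp downstream (22565497 to 22565687, 2.45), between the outer start and the canonical one. Their values were close to the list median. The nearest H3K4me3 peak was 462 kb from the gene, and the start was rich in CpG. Among CpG-rich starts, defined by an observed to expected CpG ratio of at least 0.6 and at least 50% GC within 500 bp of the start, 57.3% had H3K4me3 and 33.4% had H3K27ac. The intron peak, of H3K27ac, is shown for its base composition, with 77% GC and 21 CpGs in 191 bp. In the central 200 bp, the medians were 56.5% and 5 over all H3K27ac peaks, and 60% and 9 over all H3K4me3 peaks.
FOXA2 intron, chr20:22565497-22565687: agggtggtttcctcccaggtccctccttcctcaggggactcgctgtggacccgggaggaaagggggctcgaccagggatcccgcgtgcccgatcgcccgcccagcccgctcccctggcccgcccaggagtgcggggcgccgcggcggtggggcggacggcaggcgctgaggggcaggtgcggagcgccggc
The window holds no other protein-coding gene start.

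None of the 3 surfactant protein genes had a peak at its start or over its body. SFTPB (ENSG00000168878, chr2:85884437-85895864, minus strand) had 5 H3K27ac and 2 H3K4me3 peaks in its window, all at the far edge past the 3′ end, at least 39.9 kb from the gene. The strongest were an H3K27ac peak of 4.75 (85843878 to 85844436), in an intron of USP39, and an H3K4me3 peak of 5.61 (85843376 to 85843639), over exon 1 of USP39, which encodes a splicing factor. For all 7 peaks the nearest outer coding start was that of C2orf68. That rule leaves out internal transcript starts. The H3K4me3 peak of 5.61 and an H3K27ac peak (85843418 to 85843619, 1.74) lay over exon 1 of the canonical USP39 transcript, so C2orf68 need not be the gene marked there. The next peaks beyond the window were 53.4 kb (H3K27ac, −log10 q 3.55) and 54.1 kb (H3K4me3, 1.63) from the gene.

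SFTPA1 (ENSG00000122852, chr10:81370695-81375211, plus strand) was 68.5 kb from the nearest H3K27ac peak and 174 kb from the nearest H3K4me3 peak. SFTPA2, its near-identical paralog, begins 50.5 kb away and also had no peak in its window. Of the 32-base words in SFTPA1 and 1 kb on either side, 30.9% occurred more than once in hg19. The share was 26.7% for SCGB3A2, 21.5% for NAPSA and 22.1% for ABCA3, which had peaks, and 0.684% for NKX2-1. Reads from such words can be lost or misplaced in alignment. The part of this in the missing peaks was not tested. SFTPC (ENSG00000168484, chr8:22014426-22021992, plus strand) was 237 kb from the nearest H3K27ac and 528 kb from the nearest H3K4me3 peak, with 1.04% repeated words.

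The starts of SFTPA1 and SFTPB were poor in CpG, with observed to expected ratios of 0.10 and 0.09, and that of SFTPC, at 0.78, met the criterion. This is the outer start of SFTPC, 171 bp from that of LGI3 on the opposite strand and 4885 bp from the canonical start, so the class does not describe the canonical promoter. Among CpG-poor starts of all protein-coding genes, 10.3% had H3K27ac and 12.3% had H3K4me3, so an unmarked start of this class was the usual case. The criterion was met by 5 of the 10 starts and by 57.5% of all coding starts. The other 5 genes were CpG-poor (SFTPA1, SFTPB, NAPSA, HOPX and SCGB3A2) and none of these 5 starts was marked. For SCGB3A2 the class is that of the outer start, 8029 bp from the canonical one, which also had no peak. Of the 5 CpG-rich starts, 3 had H3K27ac (NKX2-1, FOXA1 and FOXA2) and 3 had H3K4me3 (NKX2-1, FOXA1 and ABCA3).

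Sequence upstream of 3 unmarked effector genes is given for its base composition. These stretches are not called peaks, so they are not a like comparison with the CpG-rich peaks shown for FOXA1 and FOXA2. Some marked sequence was also poor in CpG, as in the 2 parts shown for NKX2-1 and the peak shown for HOPX. Each stretch is given from hg19 on the strand of its gene, within 250 bp upstream of the canonical start and outside annotated transcripts' untranslated parts. Forkhead letters or CAAGTG on either strand are in capitals.
SFTPB, chr2:85895375-85895572: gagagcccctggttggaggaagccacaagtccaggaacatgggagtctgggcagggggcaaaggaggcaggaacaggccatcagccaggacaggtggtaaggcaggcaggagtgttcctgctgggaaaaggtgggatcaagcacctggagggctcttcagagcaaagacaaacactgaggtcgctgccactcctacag
SFTPA1, chr10:81370445-81370694: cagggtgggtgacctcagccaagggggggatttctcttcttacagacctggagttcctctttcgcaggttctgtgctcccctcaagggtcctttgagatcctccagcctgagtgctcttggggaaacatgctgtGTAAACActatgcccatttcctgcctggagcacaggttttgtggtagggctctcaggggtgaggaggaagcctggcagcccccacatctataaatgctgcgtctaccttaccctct
SCGB3A2, chr5:147258024-147258273: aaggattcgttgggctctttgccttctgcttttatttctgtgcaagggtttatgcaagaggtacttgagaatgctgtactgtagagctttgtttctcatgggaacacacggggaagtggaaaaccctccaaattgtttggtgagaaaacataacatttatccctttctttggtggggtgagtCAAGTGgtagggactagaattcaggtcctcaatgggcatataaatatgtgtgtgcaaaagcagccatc
They hold 1, 2 and 2 CpGs. The SFTPA1 stretch holds 1 forkhead match on the complementary strand and the SCGB3A2 stretch 1 CAAGTG, while the SFTPB stretch has neither. Among the 250 bp upstream of all canonical coding starts, 3.62% held the forkhead letters and 8.08% held CAAGTG, a form of the E-box CANNTG. Of the 10 genes, 2 (SFTPA1 and HOPX) and 3 (FOXA1, FOXA2 and SCGB3A2) did.

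NAPSA (ENSG00000131400, chr19:50861729-50869087, minus strand) had 1 H3K4me3 peak and no H3K27ac peak. The peak (50864909 to 50865151, −log10 q 1.55) was over coding sequence of exon 4, 3936 bp from the start, and only 6.37% of the H3K4me3 list had lower values. It lay 163 bp from the start of a noncoding transcript of NAPSA, and also in an intron of NR1H2, a gene on the opposite strand. The next H3K4me3 peak was 539 kb from the gene, as was the nearest H3K27ac peak. SCGB3A2 (ENSG00000164265, chr5:147250245-147261754, plus strand) was 149 kb from the nearest H3K27ac and 335 kb from the nearest H3K4me3 peak.

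ABCA3 (ENSG00000167972, chr16:2325882-2390747, minus strand) was the only effector gene with a marked start. Its H3K4me3 peak (2389669 to 2390100, −log10 q 1.88) was 647 bp downstream of the outer start, in an intron of ABCA3 and also of ABCA17P, a pseudogene on the opposite strand. It exceeded 18% of the list and was below the list median. No H3K27ac peak accompanied it. The central 300 bp are shown on the minus strand of hg19, as the only marked start of an effector gene, and hold 30 CpGs and 66.7% GC.
ABCA3 intron, chr16:2389735-2390034: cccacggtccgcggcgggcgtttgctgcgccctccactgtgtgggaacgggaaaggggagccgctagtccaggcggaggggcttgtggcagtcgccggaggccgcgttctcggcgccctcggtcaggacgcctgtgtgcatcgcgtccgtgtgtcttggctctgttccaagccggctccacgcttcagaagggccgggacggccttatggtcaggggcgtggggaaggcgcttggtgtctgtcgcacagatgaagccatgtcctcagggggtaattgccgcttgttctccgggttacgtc
The other peaks of the window were near other genes. An H3K4me3 peak of 2.21 (2318524 to 2319202) and an H3K27ac peak of 1.39 (2318727 to 2318923) overlapped 126 and 329 bp from the start of RNPS1, and an H3K27ac peak of 2.16 was over exon 4 of ECI1.

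HOPX (ENSG00000171476, chr4:57514155-57548043, minus strand) had 5 H3K27ac peaks, and its nearest H3K4me3 peak was 117 kb away. None was at a start. The strongest were an intergenic peak past the 3′ end (57508477 to 57508914) and an intergenic peak 17067 bp upstream (57565110 to 57565384), both with a −log10 q of 5.98, higher than 95.6% of the list. An intron peak (57521014 to 57521382, 5.12) was 26661 bp from the outer start and 1088 bp from the nearest start of an internal transcript. The remaining peaks, both upstream, had values of 1.51 and 1.93. HOPX was the nearest coding start for all 5 peaks. The upstream peak of 5.98 is shown on the minus strand of hg19 as an example of H3K27ac on CpG-poor sequence, with 3 CpGs in 275 bp and 1 CAAGTG in capitals.
HOPX upstream, chr4:57565110-57565384: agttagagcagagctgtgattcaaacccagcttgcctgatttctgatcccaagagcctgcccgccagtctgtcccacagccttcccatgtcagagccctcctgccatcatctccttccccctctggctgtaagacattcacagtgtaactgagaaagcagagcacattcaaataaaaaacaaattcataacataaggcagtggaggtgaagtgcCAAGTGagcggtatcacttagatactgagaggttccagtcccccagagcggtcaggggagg
At least 5 H3K27ac peaks in a window were found for 23.8% of all genes.

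Letters of CAAGTG were no more frequent in the H3K27ac peaks of the windows than elsewhere, with 5 of 39 (12.8%) against 12.8% of all H3K27ac peaks, and were found in 8 of 30 H3K4me3 peaks (26.7%) against 9.93%. Of these 8, 4 were at NKX2-1 and 3 at FOXA1. TTGCNNAA, a C/EBP type sequence, was found in 2 of 39 and 5 of 30 peaks, against 5.20% and 4.73% of the lists. TGANTCA, the AP-1 sequence, was found in none, against 3.30% and 2.43%. These counts are small, the peaks of a window are not independent, and a match is not evidence of binding.

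The surroundings of the genes differed as much as the genes did. Within 2.5 Mb of the start of NKX2-1, 18 of 26 other coding starts (69.2%) had H3K27ac and 20 (76.9%) had H3K4me3, and for FOXA1 the numbers were 16 (66.7%) and 17 (70.8%) of 24. Both surroundings overlap, because the genes are 1.07 Mb apart, and each gene is counted in those of the other. The counted starts also include SFTA3, which shares the outer start of NKX2-1, and TTC6, 430 bp from that of FOXA1. The median over all genes was 23.3% and 40%, and 99.8% of genes had a lower H3K27ac share than NKX2-1. At the other end, 2 of 49 starts (4.08%) around SFTPC had H3K27ac and 1 (2.04%) had H3K4me3, and around NAPSA 12 (6.22%) and 26 (13.5%) of 193. In the SFTPC window, 5 of 6 neighbouring starts were CpG-rich and none had a peak. In the NAPSA window, 3 of 4 were CpG-rich, among them POLD1, which encodes the catalytic subunit of DNA polymerase delta, and none had a peak either. The genes with the most peaks thus lay in the most widely marked surroundings, although these shares include starts marked by the genes' own peaks. The part of the surroundings in their peak numbers was not tested. The copy number of these regions in H2087 was not analysed here.

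**Figure D4:**
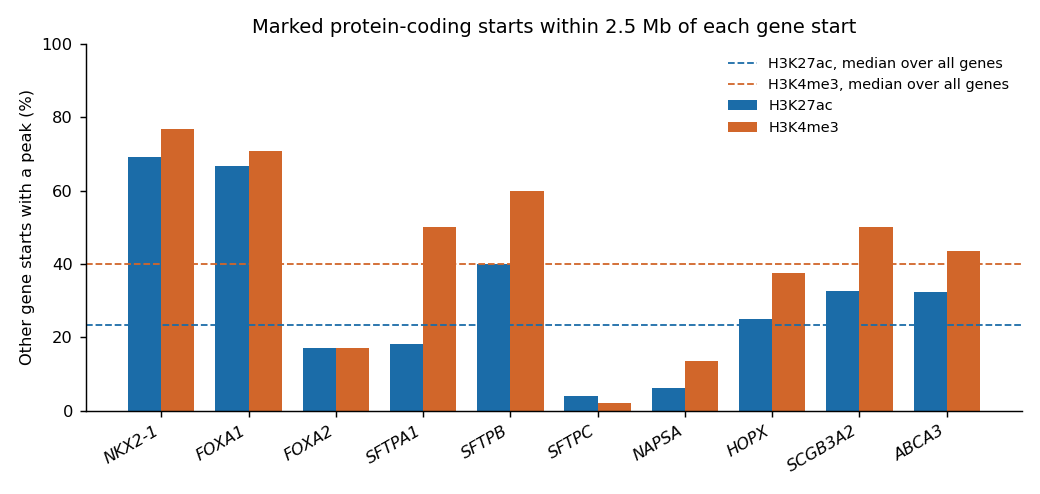
Share of other protein-coding gene starts within 2.5 Mb of each gene that had an H3K27ac (blue) or H3K4me3 (orange) peak within 1 kb, in percent, with the median over all genes as dashed lines. NKX2-1 and FOXA1 stand at 66.7% or higher, and SFTPC and NAPSA at 13.5% or lower. SFTA3 and TTC6 are among the starts counted for NKX2-1 and FOXA1.

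The surroundings of the other 6 genes were less extreme. Around SFTPB 40% of 40 starts had H3K27ac and 60% had H3K4me3, around SCGB3A2 32.6% and 50% of 46, and around ABCA3 32.3% and 43.4% of 189. For SFTPA1 the shares were 18.2% and 50% of 22 starts, for HOPX 25% and 37.5% of 24, and for FOXA2 17.2% for each mark of 29. SFTPB and SCGB3A2 thus had no mark at the start in surroundings with H3K27ac and H3K4me3 shares above the median.

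Other genes of lung cell types were read in the same way, from lists fixed for this report with earlier results of these data known. The shares to read them against are 38.2% of all starts for H3K4me3 and 23.6% for H3K27ac. Of 12 further genes of alveolar type 2 cells and surfactant handling, 3 had H3K4me3 at the start and 1 had H3K27ac. LPCAT1, which makes the saturated phosphatidylcholine of surfactant, had both, with −log10 q of 6.73 for H3K27ac and 4.89 for H3K4me3, and 32 H3K27ac peaks in its window. CEBPA, a transcription factor of alveolar type 2 cells, had H3K4me3 only (3.72), as did SFTPD, the gene of surfactant protein D (2.49). The remaining 9, among them SFTPA2, LAMP3 and SLC34A2, had neither mark at the start.

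Of 8 alveolar type 1 genes, 3 had H3K4me3 at the start and 1 had H3K27ac. These were AKAP5 (H3K4me3 6.14), CAV1 (H3K27ac 3.55 and H3K4me3 2.73), which encodes caveolin, and EMP2 (H3K4me3 3.48). Of 8 secretory and club cell genes, only the mucin gene MUC5B was marked (H3K4me3 3.76), so SCGB1A1 and SCGB3A1 had unmarked starts like SCGB3A2. Only 1 of these 8 starts was CpG-rich, and over all CpG-poor starts 12.3% had H3K4me3 and 10.3% had H3K27ac. Among 12 other regulators of lung and foregut, 7 starts had H3K4me3 and 2 had H3K27ac. Among them were ID2 (H3K4me3 3.76) and TBX4 (H3K4me3 3.68).

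Lists of other cell types were read against the same shares, and an unmarked start does not by itself show that a cell type is absent. Of 8 general epithelial genes, 7 had H3K4me3 and 6 had H3K27ac at the start. The highest values were at KRT8 (18.87 and 14.78), its neighbour KRT18 (7.64 and 14.78) and KRT7 (9.85 and 6.90), which encode keratins of simple epithelia. In the annotation KRT8 reaches to 53343738 and KRT18 begins at 53342655, and they have the same H3K27ac value. The start marks of KRT8 and KRT18 therefore cannot be counted as separate or assigned to either gene. None of 7 genes of blood and mesenchyme was marked at the start, and only 1 of the 7 starts was CpG-rich. The windows of these genes were not empty, with a median of 4 H3K27ac peaks and, for example, 7 each at CD3E and COL1A1. PECAM1, the eighth of the list, was not found among the coding genes used. Of 10 genes of gastric and liver type, 2 had H3K27ac (CTSE 2.91 and FOXA3 2.82) and 1 had H3K4me3 (PDX1 2.93). Of 6 ciliated cell genes, 2 had H3K4me3 (FOXJ1 4.50 and MCIDAS 3.35) and MCIDAS also had H3K27ac (3.8). Of 5 basal cell genes, 2 had H3K4me3 (NGFR 2.23 and SOX2 1.43) and SOX2 also had H3K27ac (2.16). SFTPA1, SFTPB, SFTPC and NAPSA, effector genes of the alveolar type 2 cell, had no marked start, which was also the case for 56.8% of all starts, and 3 of the 4 are of the CpG-poor class.

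**Figure D5:**
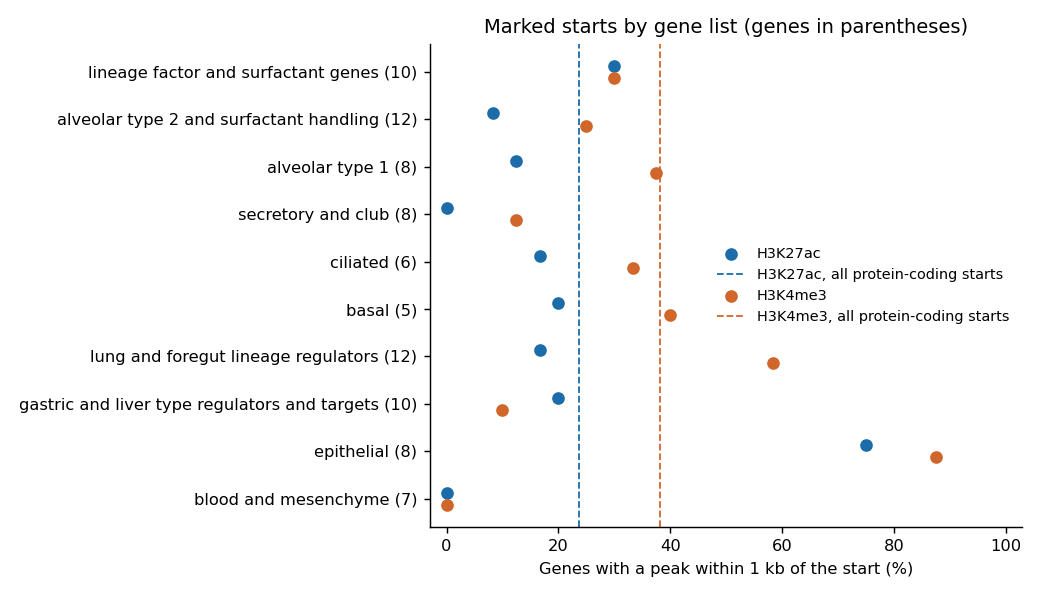
Share of genes with an H3K27ac (blue) or H3K4me3 (orange) peak within 1 kb of the start, in percent, for the 10 genes and for 9 further lists, with the number of genes in parentheses and the shares over all protein-coding starts as dashed lines. The epithelial list stands at 75% and 87.5%, the 10 genes at 30% for both marks, and the blood and mesenchyme list at 0.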

How the data were processed

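ChIP-seq was performed in untreated H2087 cells with 1 library for H3K27ac and 1 for H3K4me3. According to the study's methods and the submitters' processing notes, reads were aligned to hg19 with Bowtie 1.1.1, and MACS2 2.1.0 was used for peak calling. The calling threshold, the handling of duplicate reads and whether the input, which was saved for normalization, was the control in peak calling are not given in the sources used here. The deposited lists have 25275 (H3K27ac) and 20282 (H3K4me3) entries and no header. The last column was read, from its values (smallest 1.303 and 1.306, against 1.301 for a q of 0.05), as a −log10 q per summit, written by the peak caller of the authors.

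Entries with equal coordinates were joined into 24096 and 18585 distinct intervals, each with its highest value. Genes, transcripts and exons were taken from GENCODE 44 mapped to GRCh37, the build of the files, and sequences from the same assembly. Positions are 1-based. Shares over all genes were computed on 20163 protein-coding genes, and the share of overlapping peaks was given an exact Clopper-Pearson 95% interval. Motifs were searched on both strands in the central 200 bp of each interval. Scripts used Python 3.11.15, pandas 2.3.3, SciPy 1.17.1 and pysam 0.24.0, and overlap counting and motif search were tested on simulated data. All 10 genes are described. In each window the strongest peak of each mark and the peaks within 1 kb of the start are named, and of each further list the 3 genes with the highest values at the start, apart from 1 gene that is not reported here. The members and lists were chosen with earlier results of these data known. The joined regions, the CpG classes, the surroundings and the repeated words were added after the peaks had been seen. Alternatives were other windows, thresholds, peak and start definitions, and overlap rules. Depth is unknown, and a missing peak may also reflect low coverage.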

Additional observations from a re-analysis of the deposited data

How the results depend on the processing

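No paired analysis was possible because there was a single library for either mark, which also left no replicate to omit. For 6 results, 30 alternative values were computed, of which 18 stayed within their tolerance (a factor of 1.5 for counts, and the exact 95% interval for shares) and 12 did not. The 39 H3K27ac peaks became 25 in the upper part of the list by median −log10 q, 10 at a −log10 q of at least 5, and 22 after merging within 1 kb. The 30 H3K4me3 peaks became 19, 9 and 15, and 48 with a window of 100 kb. At a −log10 q of at least 5, no gene kept an H3K27ac peak within 1 kb of its start, a count of 0 in place of 3, and 1 gene kept an H3K4me3 peak. In the upper part of the list, 1 gene in place of 3 had H3K4me3 at the start. Shares of all starts were not computed under these alternatives. The starts of every transcript gave 4 genes with H3K4me3 in place of 3, NAPSA being added, which was within the tolerance. The share of H3K27ac peaks overlapping H3K4me3 was 48.7% (95% interval 32.4 to 65.2), against 24% of the whole H3K27ac list. It was 30.8% when 50% of both peaks had to be shared, and the share of the list under that rule was not computed. The interval treats the peaks as independent, although 25 of the 39 lie in the windows of NKX2-1 and FOXA1, so it serves only as a tolerance. With TATTTAC alone, the share of H3K27ac peaks with forkhead letters was 0 in place of 5.13%. Only 26 H3K27ac and 20 H3K4me3 peaks had a gene of the set as nearest coding start, by outer starts. These changes follow from how each alternative removes, joins or redefines peaks. The unknown depth limits every statement about a missing mark.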

Other observations

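The next peaks beyond the 50 kb windows show how sharply the limit cuts. For ABCA3 they were 51.9 kb (H3K27ac, −log10 q 3.20) and 51.5 kb (H3K4me3, 2.68) from the gene, and both values were higher than every value of that mark inside the window. For NKX2-1 the next H3K4me3 peak, 59.9 kb away, had a −log10 q of 9.0, above the highest H3K4me3 value inside the window (5.53).

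Outside the windows of NKX2-1 and FOXA1, 14 H3K27ac and 5 H3K4me3 peaks remained. Of these, 7 and 2 had the gene of their own window as nearest coding start, namely the 2 peaks of FOXA2 and the 5 of HOPX for H3K27ac, and 1 peak each of NAPSA and ABCA3 for H3K4me3. No gene of these 8 had both marks among such peaks. The same counts over all protein-coding genes were not computed, so these counts are not a result about the members.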
